A study of Mus musculus with 12 samples.

Results

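The comparison is that of bone marrow-derived macrophages (BMDM) treated with lipopolysaccharide (LPS) for 12 h against unstimulated cells (M0), taken over both genotypes of the study. It used 8 of the 12 RNA-seq libraries, namely 2 wild type (wt) and 2 Treml4-/- libraries at M0 and 2 of each genotype after LPS, 4 against 4, with genotype as a covariate. The other 4 libraries, 2 of each genotype after 8 h of LPS, were used only to see what still moved between 8 h and 12 h. All mice were C57BL6, and the Treml4-/- cells lack both copies of *Treml4*, a receptor-like gene of the TREM family. Bone marrow was grown with M-CSF at 20 ng/ml and the cells then received LPS at 100 ng/ml or the vehicle PBS. The sample titles call the libraries biological replicates without saying which animals they came from, so p-values measure the spread between these libraries. Of the 43280 genes listed, 12086 had at least 1 CPM (reads of the gene after every library is brought to the same total) in at least 2 of the 12 libraries and were tested, and 11805 of them also did after scaling.

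LPS, a component of the outer membrane of Gram-negative bacteria, is sensed on macrophages by Toll-like receptor 4 with its partners MD-2 and CD14. The adaptor MyD88 leads to NF-kB and early cytokine genes, and the adaptor TRIF leads to interferon beta, whose receptor turns on a large set of interferon-stimulated genes. Macrophages activated by LPS are known for nitric oxide and itaconate production, for a shift towards glycolysis and for leaving the cell cycle that M-CSF drives.

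Reads counted on genes ranged from 48008751 to 58500792 per library, so that 1 read was worth 0.0171 to 0.0208 CPM. No pair of replicates agreed within counting noise (chi-square divided by its degrees of freedom, 11.3 to 51.7). *Treml4* (chromosome 17, 48264295 to 48275360 of GRCm38) had 8.35 and 6.57 CPM in the wt M0 libraries and 9.82 and 13.2 CPM in the wt 12 h libraries, and no read in any Treml4-/- library. The macrophage markers summed to between 20710 and 27800 CPM at M0 and between 9790 and 10660 CPM at 12 h, none at 0. Of the 8 markers, 3 rose and 3 fell, beside 16.3% and 32.6% of all tested genes. Their mean log2(CPM + 1) was 9.51 to 9.71 at M0 and 9.61 to 9.67 at 12 h. Neutrophil markers summed to 48.1 CPM in wt M0 replicate 2, 118 to 158 CPM in the other M0 libraries and 48.9 to 66.8 CPM at 12 h. Of the 7 tested, 5 fell and 1 rose, beside 32.6% and 16.3% of all tested genes. B cell markers summed to 4.39 to 6.48 CPM at M0 and 0.258 to 0.333 CPM at 12 h, most of it *Cd79b*. T cell markers summed to 3.82 to 5.26 and 0.774 to 1.44 CPM, most of it *Cd4*. *Cd3e*, at 0 at 12 h, had at most 0.0193 CPM in any library. Natural killer cell markers went up from between 0.411 and 0.846 to between 4.49 and 6.27 CPM, nearly all of the 12 h sum being *Klrk1*. *Gzma* and *Prf1* had no read at 12 h and at most 0.0197 CPM in any library. Dendritic cell markers went up from between 0.689 and 0.896 to between 2.53 and 5.78 CPM. Most of their 12 h sum was *Xcr1*, which had no read at M0. Markers of fibroblasts, mast cells and erythroid cells summed to at most 2.51 CPM. The 4 endothelial markers summed to between 7.06 and 9.43 CPM at M0 and between 188.6 and 272.1 CPM at 12 h. Most of this was *Kdr*, at 7.32 ± 0.703 CPM at M0 and 222 ± 37.3 CPM at 12 h (SD, n = 4), while *Tek* had no read at 12 h, and the part of these other cell types in the results was not tested. In bulk RNA, fewer cells of a type and less RNA per cell cannot be told apart.

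One unstimulated library stood apart. In wt M0 replicate 2 the 38 cell cycle genes tested summed to 2481 CPM, against 3939 to 4039 CPM in the other M0 libraries. Its MHC class II genes summed to 6925 CPM, against 5316 to 5662 CPM, and its neutrophil markers were the lowest at M0. Wt replicate 2 also had the highest MHC class II sum at 8 h, 5898 CPM against 4066 to 4341 CPM. At 12 h it had 5877 CPM against 4550 to 5113 CPM. Counts of cell cycle and MHC class II genes are given with and without wt M0 replicate 2, as are the changes of many named members. Leaving it out keeps wt 12 h replicate 2, which was high for MHC class II. The part of wt M0 replicate 2 in these results was not tested.

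Promoters are shown first, for genes of the groups that changed most. The bases upstream of the first start that RefSeq lists (GRCm38.p6) are printed 5′ to 3′ for genes that rose or fell. The first set shows *Rsad2*, *Cxcl10* and *Gbp5*, which are induced by interferon, and *Il6*, an early NF-kB target. Capitals mark the interferon-stimulated response element (ISRE, searched as GAAA and GAAA parted by any 2 bases) in the first 3 and the NF-kB site (searched as GGG and TTTCC parted by any 2 bases) in *Gbp5* and *Il6*, on either strand.
Rsad2, chr12:26456453-26456702, minus strand: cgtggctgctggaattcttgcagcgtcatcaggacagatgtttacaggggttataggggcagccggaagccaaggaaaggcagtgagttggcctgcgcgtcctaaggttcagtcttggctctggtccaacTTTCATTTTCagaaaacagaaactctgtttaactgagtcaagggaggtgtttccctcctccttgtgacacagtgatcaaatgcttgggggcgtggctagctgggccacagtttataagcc
Cxcl10, chr5:92348890-92349139, minus strand: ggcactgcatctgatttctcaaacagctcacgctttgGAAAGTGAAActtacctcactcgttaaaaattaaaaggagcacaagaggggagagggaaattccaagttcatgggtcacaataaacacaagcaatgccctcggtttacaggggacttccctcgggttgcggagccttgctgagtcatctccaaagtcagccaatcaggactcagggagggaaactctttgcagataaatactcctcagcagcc
Gbp5, chr3:142496684-142496933, plus strand: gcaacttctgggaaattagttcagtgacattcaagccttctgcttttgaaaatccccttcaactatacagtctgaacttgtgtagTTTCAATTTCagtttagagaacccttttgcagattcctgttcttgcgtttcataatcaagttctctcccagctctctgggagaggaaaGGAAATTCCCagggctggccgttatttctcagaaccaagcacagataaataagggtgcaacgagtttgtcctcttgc
Il6, chr5:30012864-30013113, plus strand: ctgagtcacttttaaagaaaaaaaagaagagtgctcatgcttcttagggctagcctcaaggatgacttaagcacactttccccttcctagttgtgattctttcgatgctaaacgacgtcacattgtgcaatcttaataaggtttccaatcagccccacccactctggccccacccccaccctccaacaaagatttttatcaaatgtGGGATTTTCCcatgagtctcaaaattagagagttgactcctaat
The ISRE letters lay at positions -120 to -111 from the start in *Rsad2*, -213 to -204 in *Cxcl10* and -165 to -156 in *Gbp5*, and the NF-kB letters at -77 to -68 in *Gbp5* and -44 to -35 in *Il6*. The second set shows *Top2a* and *Ccnb2*, which act in mitosis, and *Mvd*, an enzyme of cholesterol synthesis. Capitals mark CCAAT on either strand, of which there were 6 in *Top2a*, 3 in *Ccnb2* and 2 in *Mvd*.
Top2a, chr11:99024190-99024439, minus strand: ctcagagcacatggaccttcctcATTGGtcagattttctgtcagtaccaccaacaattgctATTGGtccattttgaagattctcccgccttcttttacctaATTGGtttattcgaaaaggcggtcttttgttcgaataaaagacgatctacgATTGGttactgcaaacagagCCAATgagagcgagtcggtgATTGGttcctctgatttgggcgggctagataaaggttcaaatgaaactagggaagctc
Ccnb2, chr9:70421555-70421804, minus strand: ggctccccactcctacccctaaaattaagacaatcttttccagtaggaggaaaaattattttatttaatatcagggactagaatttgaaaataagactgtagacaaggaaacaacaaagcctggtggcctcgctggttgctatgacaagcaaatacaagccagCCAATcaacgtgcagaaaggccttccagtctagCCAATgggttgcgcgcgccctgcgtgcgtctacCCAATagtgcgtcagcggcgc
Mvd, chr8:122443423-122443672, minus strand: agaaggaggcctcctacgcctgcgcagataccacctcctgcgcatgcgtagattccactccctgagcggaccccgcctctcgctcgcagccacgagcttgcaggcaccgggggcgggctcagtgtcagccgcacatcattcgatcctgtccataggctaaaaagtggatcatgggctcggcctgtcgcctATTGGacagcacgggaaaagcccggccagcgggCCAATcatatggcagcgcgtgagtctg

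Over the 27025 promoters of the table, from 250 bases before to 50 after the start, the ISRE letters stood in 3.49%, the NF-kB letters in 1.62% and CCAAT in 37.9%. A promoter was matched for 9044 of the 12086 tested genes, of which 3.47%, 1.70% and 39.1% held the same letters. Of the 27 interferon-stimulated genes with a promoter, 15 (55.6%) held the ISRE. Of 31 cell cycle genes 23 (74.2%) held CCAAT and 9 (29.0%) the E2F letters TTTNNCGC, which stood in 8.98% of tested genes. Of 15 cholesterol synthesis genes 14 (93.3%) held CCAAT. The ISRE was found in 8.75% of the promoters of genes that rose and 2.15% of those that fell, and in 29.6% of those that rose at least 16-fold. The NF-kB letters were found in 3.15% of those that rose and 1.09% of those that fell, and in 4 of 12 chemokine (33.3%) and 2 of 12 cytokine promoters (16.7%). The TATA box letters TATAAA stood in 6.76% of all tested genes, 10.6% of those that rose and 22.5% of those that rose at least 16-fold. These are matches of letters, given as a description.

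Reads were spread over fewer genes after 12 h of LPS by one measure and not by another. The number of genes that held 50% of the reads was 432 to 519 at M0 and 243 to 263 at 12 h (exact permutation test, two-sided, p = 0.0286, the smallest that 4 against 4 allows). The 10 highest genes of a library held 11.6% to 13.3% of its reads at M0 and 12.8% to 13.6% at 12 h (exact permutation test, p = 0.0857). As a description only, since they were chosen by this change in the same libraries, genes called higher held 13.6% ± 0.169 of all reads at M0 and 52.9% ± 1.20 at 12 h (SD, n = 4), while genes called lower on both scales went from 33.8% ± 0.196 to 8.60% ± 0.285. Cytosolic ribosomal protein genes took 4.47% ± 0.0723 of reads at M0 and 1.63% ± 0.0658 at 12 h (SD, n = 4, exact permutation test, p = 0.0286), and mitochondrial genes 0.680% ± 0.121 and 0.650% ± 0.0874 (SD, n = 4, exact permutation test, p = 0.714).

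CPM are shares of a fixed total, so the comparison was made on a second scale as well. The median log2 fold change of all 12086 genes was -0.76 in CPM and -0.04 after median of ratios scaling, which sets the library factors by the typical gene. In CPM, 1966 genes (16.3%) were called higher and 7285 (60.3%) lower, 76.5% in all, so that 21.3% of calls were higher. After scaling, 3946 (32.6%) were higher and 3935 (32.6%) lower, and 50.1% of calls were higher. A gene was called at a limma adjusted p (Benjamini-Hochberg) under 0.05 where its change also reached 1.4-fold on the log2(value + 1) scale, which understates the change of a gene that is near or under 1 CPM in either group, induced or repressed.

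Genes are said to have risen or fallen here only where both scales called them in the same direction. By that rule 1966 genes (16.3%) rose and 3935 (32.6%) fell. Every gene called higher in CPM was also higher after scaling, and every gene lower after scaling was also lower in CPM. So CPM set the number that rose and scaling the number that fell. Counts of the lists below are to be read beside 16.3% and 32.6% of all genes. A further 3350 genes fell in CPM only and 1980 rose after scaling only, 855 were called on neither scale, and none was called in opposite directions. Without wt M0 replicate 2, 1936 rose and 3916 fell. The distribution of log2 fold changes lies further to the right after scaling, by a median of 0.79, but not by the same amount for every gene. *Ifit2* went from 8.10 in CPM to 8.91 after scaling and *Ccl8* from 4.94 to 5.23.

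**Figure D1:**
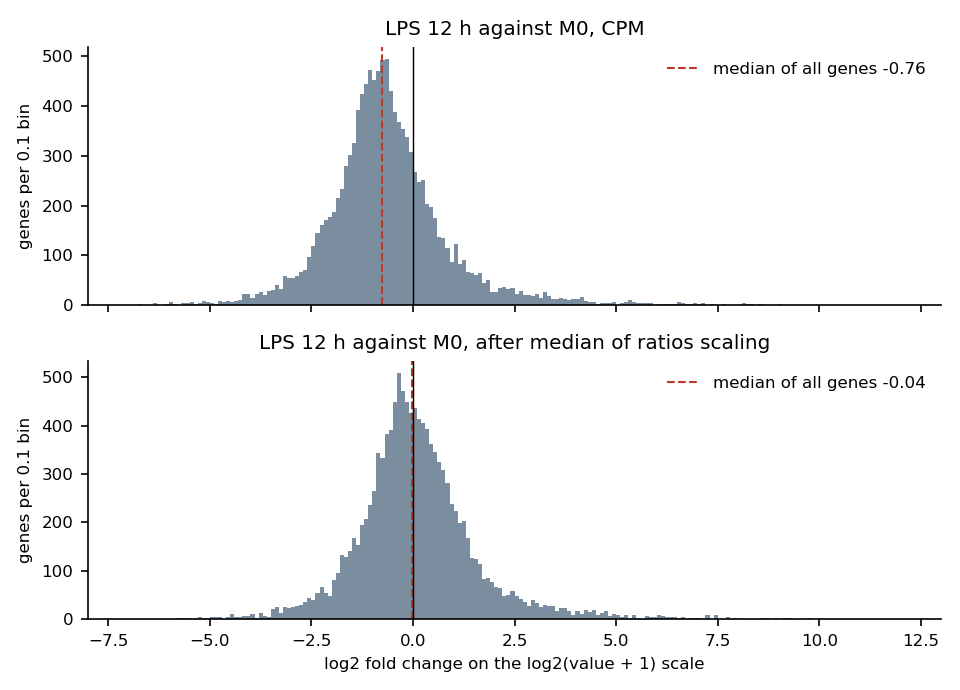
Histograms of the log2 fold change of 12086 genes at LPS 12 h against M0, in CPM (top) and after median of ratios scaling (bottom), as genes per bin of 0.1 on the x axis. The dashed line is the median of all genes, at -0.76 in CPM and -0.04 after scaling, and the long right tail holds the genes that rose most.

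In CPM, more genes fell than rose by moderate folds, and more rose than fell by the largest. CPM place the median of all genes at -0.76, and calls after scaling were even, 3946 higher and 3935 lower. Folds after scaling were not counted. On the log2(CPM + 1) scale, 620 of the genes that rose did so at least 4-fold, 187 at least 16-fold, 70 at least 64-fold and 25 at least 256-fold. Among those that fell, the numbers were 1608, 157, 11 and 0, but this scale bounds a fall by the level at M0. By the plain ratio of mean CPM, with a mean under the floor of 3 reads set to the floor, 875, 383, 150 and 65 genes rose and 2450, 544, 113 and 20 fell by the same folds. On the log2(CPM + 1) scale and in both directions together, 2.85% of all tested genes reached 16-fold, 0.670% reached 64-fold and 0.207% reached 256-fold. At least 1 CPM in all 12 h libraries and under 1 CPM in all M0 libraries was found for 345 genes, and the reverse for 975. The M0 libraries each held 3 or fewer reads of 109 tested genes and the 12 h libraries of 54, and the fitted change of these genes depends on the 1 CPM that was added. Of all tested genes, 11477 would have passed the filter on the M0 libraries alone, of which 1494 rose, and 10592 on the 12 h libraries alone, of which 2996 fell.

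*Nos2*, the inducible nitric oxide synthase (chromosome 11, 78920787 to 78960254 of GRCm38), rose most on the log2(CPM + 1) scale. It had 3.39 and 6.90 CPM in the wt and 5.15 and 5.42 CPM in the Treml4-/- libraries at M0, and 17300 and 16250 CPM in the wt and 15560 and 16730 CPM in the Treml4-/- libraries at 12 h. The log2 fold change was 11.40 (SE 0.14, limma with Benjamini-Hochberg adjusted p = 4.4e-13). *Cxcl9*, a chemokine induced by interferon gamma and other stimuli, followed at 10.81, with 1.78 ± 0.712 CPM at M0 and 4864 ± 242 CPM at 12 h (SD, n = 4). *Ccl5*, a chemokine for T cells, rose by 10.47 on the log2 scale of CPM, in which all changes below are given unless the scaled value is named, *Ptgs2*, the inducible cyclooxygenase, by 10.05, and *Saa3*, an acute-phase serum amyloid, by 9.91.

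The other genes among the 15 with the largest rise were mostly defence genes that interferon induces. *Rsad2*, which encodes the antiviral enzyme viperin, *Mx1* and *Slfn4* rose by 9.61, 9.07 and 8.39. The GTPases *Gbp4*, *Gbp5* and *Iigp1*, which act on vacuoles that hold microbes, rose by 9.16, 8.51 and 8.87. *Cxcl10* rose by 9.05, the protease inhibitor *Serpina3g* by 9.51, the uridine phosphorylase *Upp1* by 8.53 and the transcript *AW112010* by 8.49. *Serpina3g*, *Gbp4*, *Iigp1* and *Mx1* have close relatives in the genome, among which the counting could have split reads. In each of these 15 genes the lowest 12 h library lay above the highest M0 library. Groups that did not overlap were found for 86.5% of all tested genes, counting both directions.

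All 36 interferon-stimulated genes of the list rose, beside 16.3% of all tested genes, and 35 of them would have passed the filter on the M0 libraries alone, with a median log2 fold change of 5.05 in CPM and 5.85 after scaling. *Rsad2* had 13.2 and 12.3 CPM in the wt and 12.5 and 16.3 CPM in the Treml4-/- libraries at M0, and 11960 and 10950 CPM in the wt and 11350 and 11050 CPM in the Treml4-/- libraries at 12 h. These values did not overlap, and the log2 fold change was 9.61 (SE 0.08, limma with Benjamini-Hochberg adjusted p = 5.9e-14). *Cmpk2*, the neighbour of *Rsad2*, went from 12.2 to 3941 CPM, *Ifit1* from 11.2 to 2319 CPM and *Ifit2* from 13.9 to 4093 CPM, the products of the last pair binding foreign RNA. *Isg15*, a ubiquitin-like modifier, had 12.5 ± 1.17 CPM at M0 and 1682 ± 119.8 CPM at 12 h (SD, n = 4), and *Usp18*, the protease that removes it, rose by 6.51.

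The sensors and transcription factors of the same group also rose. *Irf7*, the main amplifier of interferon production, went from 43.7 to 3333 CPM, a log2 fold change of 6.22 (SE 0.10, limma with Benjamini-Hochberg adjusted p = 3.3e-12). The signal transducer *Stat2* rose by 3.93, and *Irf9*, its partner, by 0.57 in CPM and 1.41 after scaling, the smallest change of the list. The RNA sensors *Ddx58* (RIG-I), *Ifih1* (MDA5) and *Dhx58* (LGP2) rose by 3.50, 4.67 and 3.61. *Gbp2* reached 4758 ± 147 CPM at 12 h from 28.6 ± 2.80 CPM (SD, n = 4). *Ifnb1*, which encodes interferon beta, had 0 to 0.0204 CPM at M0, at most 1 read per library, and 0.940, 1.79, 1.04 and 1.11 CPM at 12 h, at least 20.8-fold higher against a floor of 3 reads.

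Of the 21 cytokine genes of the list 17 were tested, and 10 of these passed the filter through the LPS libraries and so had to be higher there. The 7 that would have passed it on the M0 libraries alone all rose. *Il1rn*, the antagonist of the interleukin-1 receptor, changed most on the log2(CPM + 1) scale, on which the change of genes near 0 at M0 is understated. It had 25.7 and 35.4 CPM in the wt and 36.3 and 36.4 CPM in the Treml4-/- libraries at M0, and 11610 and 9057 CPM in the wt and 11790 and 10970 CPM in the Treml4-/- libraries at 12 h, and its log2 fold change was 8.31 (SE 0.10, limma with Benjamini-Hochberg adjusted p = 4.4e-13). The groups were far apart. Of the agonists of the same receptor, *Il1b* had 0.540 ± 0.273 CPM at M0 and 181 ± 78.4 CPM at 12 h and *Il1a* 0.127 ± 0.0598 CPM at M0 and 57.5 ± 7.60 CPM at 12 h (SD, n = 4), rises of 6.82 and 5.69. *Il27* went from 0.640 to 188 CPM and *Il12b*, the p40 subunit of interleukins 12 and 23, from 0.0538 to 58.0 CPM.

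*Il6* had 0.0193 and 0.0393 CPM in the wt and 0.0815 and 0 CPM in the Treml4-/- libraries at M0, and 41.5 and 72.8 CPM in the wt and 34.3 and 28.7 CPM in the Treml4-/- libraries at 12 h. At M0 that was 4 or fewer reads per library, so a log2 fold change of 5.36 (SE 0.20, limma with Benjamini-Hochberg adjusted p = 6.6e-10) on the log2(CPM + 1) scale understates the rise. The library highest at 12 h, wt replicate 2, had 2.54 times the CPM of the lowest. *Tnf*, which resting macrophages already transcribe, had 39.9 and 49.1 CPM in the wt and 34.7 and 39.0 CPM in the Treml4-/- libraries at M0, and 146 and 196 CPM in the wt and 192 and 188 CPM in the Treml4-/- libraries at 12 h. Its log2 fold change was 2.12 and 2.96 in CPM and after scaling. *Il10*, the main anti-inflammatory cytokine, went from 1.62 to 58.6 CPM, *Il15* from 10.2 to 142 CPM and *Csf1*, the gene for M-CSF itself, from 0.679 to 16.2 CPM. *Il33* had no read at M0 and 1.84 to 3.91 CPM at 12 h, at least 48.6-fold higher against the floor of 3 reads. *Il12a*, *Il23a*, *Lif* and *Csf2* were listed but did not pass the filter, and reached at most 1.08 CPM in any library.

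Of 19 chemokine genes tested, 16 rose and *Cxcl14* fell. Of the 12 that would have passed the filter on the M0 libraries alone, 9 rose. *Ccl5* had 1.50 and 2.48 CPM in the wt and 2.10 and 2.13 CPM in the Treml4-/- libraries at M0, and 4520 and 5296 CPM in the wt and 3676 and 3832 CPM in the Treml4-/- libraries at 12 h. No M0 library was above 2.48 CPM and no 12 h library below 3676 CPM, and the log2 fold change was 10.47 (SE 0.12, limma with Benjamini-Hochberg adjusted p = 2.5e-13). The monocyte attractants *Ccl2* and *Ccl7* rose by 8.17 and 7.16, and the genes of the CXCR3 ligand group, *Cxcl9*, *Cxcl10* and *Cxcl11*, by 10.81, 9.05 and 7.65. *Cxcl11* is annotated as a polymorphic pseudogene, so its rise is one of RNA and says nothing of a working ligand. The neutrophil attractants *Cxcl1*, *Cxcl2* and *Cxcl3* rose by 1.34, 3.91 and 3.73. *Cxcl14* went from 6.98 to 0.494 CPM. *Ccl6* fell in CPM only, at -1.20 and -0.37 on the 2 scales, and *Ccl9* was called on neither, at -0.45 and 0.40, although without Treml4-/- 12 h replicate 1 it was called lower in CPM at -0.52.

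Several of these genes are neighbours. Every tested gene rose between *Cxcl9* and *Cxcl11* on chromosome 5 (92321347 to 92365485, 3 genes), between *Ccl2* and *Ccl8* on chromosome 11 (82035571 to 82116799, 4 genes), between *Ifit2* and *Ifit1* on chromosome 19 (34550694 to 34650009, 6 genes), between *Slfn2* and *Slfn4* on chromosome 11 (83065112 to 83190216, 3 genes), between *Gbp5* and *Gbp2* on chromosome 3 (142493978 to 142638008, 4 genes) and between *Oas2* and *Oas1a* on chromosome 5 (120730333 to 120907521, 6 genes). Positions are those of GRCm38, and these spans were picked after their values were seen. *Cxcl11* and *Oas1b* are annotated as polymorphic pseudogenes. Members of the Ifit, Slfn, Gbp and Oas families resemble each other, so reads could be split among them.

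**Figure D2:**
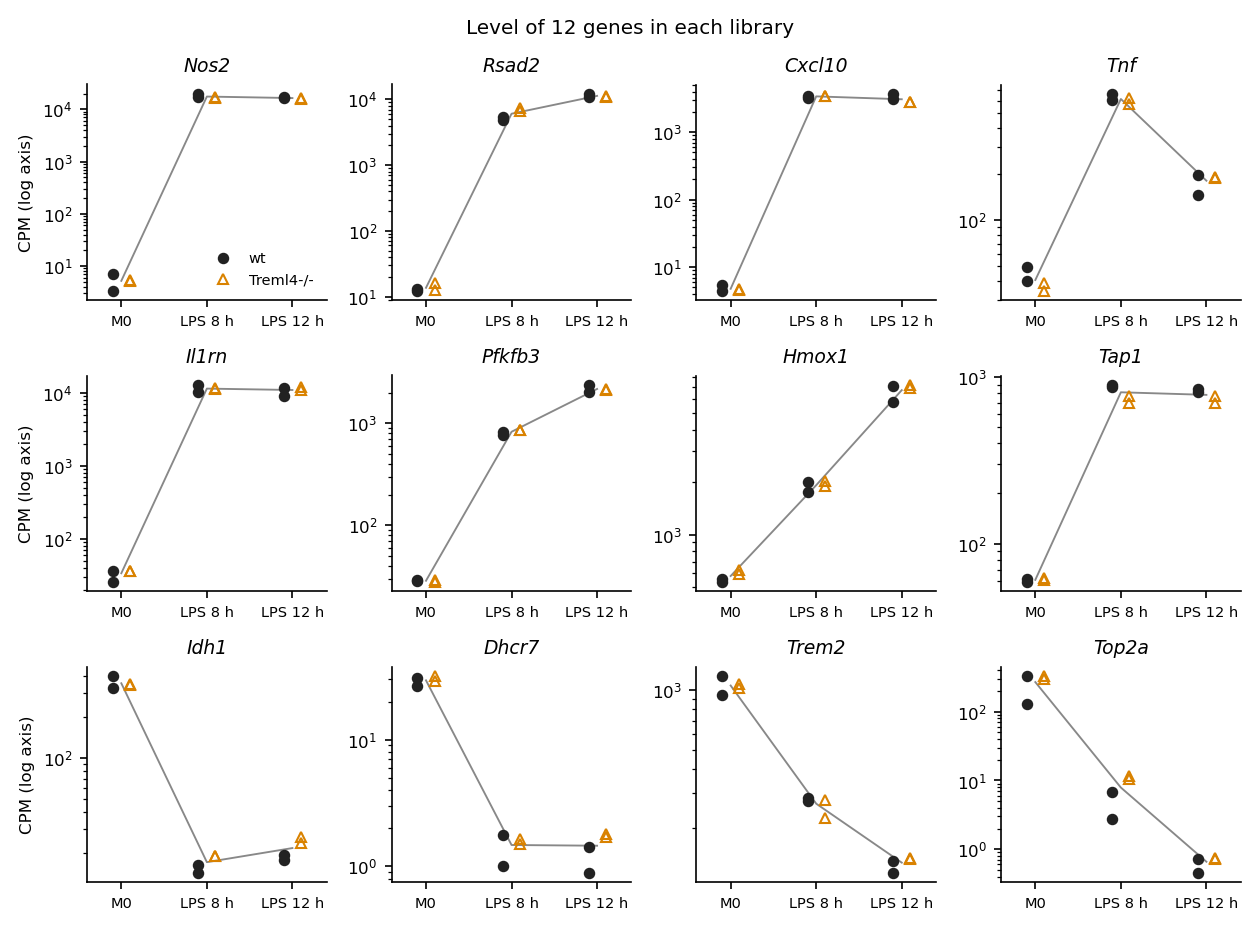
CPM (log axis) of 12 genes in each library at M0, LPS 8 h and LPS 12 h, with wt as filled circles, Treml4-/- as open triangles and a line through the means of the 4 libraries per condition. *Nos2* rose from 5.22 to 16460 CPM at 12 h and *Top2a* fell from 269.9 to 0.657 CPM, with wt M0 replicate 2 the lowest *Top2a* value at M0.

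Genes of LPS sensing moved in both directions. Of its 23 genes tested, 10 rose, 3 fell, 6 rose after scaling only, 3 fell in CPM only and *Lbp* was called on neither scale. The median log2 fold change was 0.20 in CPM and 1.04 after scaling. Of the 21 that would have passed the filter on the 12 h libraries alone, 2 fell. The LPS receptor *Tlr4* had 37.0 ± 2.42 CPM at M0 and 25.5 ± 6.53 CPM at 12 h (SD, n = 4), lower in CPM at -0.55 but 0.27 after scaling, where it was not called. Of its co-receptors, *Ly96* (MD-2) rose by 0.51, and *Cd14* was 0.41 and 1.25 on the 2 scales, higher after scaling only. Some of these calls in CPM turned on 1 library: without wt 12 h replicate 1, *Ly96* at 0.45 was not called and *Cd14* at 0.52 was, without wt 12 h replicate 2, *Tlr4* at -0.43 was not, and without wt M0 replicate 2, *Lbp* at -0.50 was.

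The Toll-like receptors for nucleic acids in endosomes differed. *Tlr3* rose by 2.71 and *Tlr9* by 2.90, *Tlr7* and *Tlr8* were higher after scaling only, at 0.20 and 1.04 and at 0.10 and 0.95 on the 2 scales, and *Tlr13* was lower in CPM only, at -1.33 and -0.48. *Tlr2*, the lipoprotein receptor, had 259 and 241 CPM in the wt and 214 and 218 CPM in the Treml4-/- libraries at M0, and 26.8 and 31.3 CPM in the wt and 35.4 and 30.3 CPM in the Treml4-/- libraries at 12 h. Its groups did not overlap, and its log2 fold change was -2.88 (SE 0.09, limma with Benjamini-Hochberg adjusted p = 2.6e-10), while the partners of TLR2, *Tlr1* and *Tlr6*, rose by 1.74 and 1.05. The adaptor *Myd88* rose by 0.97 and *Ticam1* (TRIF) by 0.57. Of the kinases below MyD88, *Irak1* fell by 2.26, *Irak4* was -0.81 and 0.02 on the 2 scales and so fell in CPM only with the sign turned after scaling, and *Irak2* and *Irak3* rose by 0.70 and 0.71.

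Of the 14 NF-kB subunits and inhibitors, 8 rose and 6 rose after scaling only. The inhibitors of the pathway had the largest changes. *Tnfaip3* (A20), a ubiquitin editor that ends NF-kB signalling, had 46.8 and 46.6 CPM in the wt and 39.8 and 44.7 CPM in the Treml4-/- libraries at M0, and 386 and 492 CPM in the wt and 397 and 385 CPM in the Treml4-/- libraries at 12 h, and its log2 fold change was 3.19 (SE 0.08, limma with Benjamini-Hochberg adjusted p = 3.9e-11). *Nfkbie*, *Nfkbiz* and *Nfkbia*, which encode IkB proteins, rose by 2.42, 1.75 and 1.48. Of the subunits, *Nfkb2* rose by 0.97. *Rela*, *Nfkb1*, *Rel* and *Relb* were 0.01, 0.05, 0.39 and 0.37 in CPM, none called, and were called higher after scaling, at 0.86, 0.89, 1.19 and 1.20.

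Of 19 genes that brake signalling, 15 rose, beside 16.3% of all genes. Of the 17 that would have passed the filter on the M0 libraries alone, 13 rose. *Socs1* and *Socs3*, which block cytokine receptors, rose by 6.59 and 5.69, *Cish* by 3.29 and the MAP kinase phosphatase *Dusp1* by 2.94. *Zfp36*, which destabilizes cytokine mRNA, went from 181 to 838 CPM. *Atf3*, a repressor that LPS induces, had 502 ± 49.2 CPM at M0 and 1346 ± 59.9 CPM at 12 h (SD, n = 4). The phosphatase *Dusp4* and the ubiquitin ligase *Pdlim2* fell, at -1.94 and -1.56 in CPM.

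Enzymes of arginine, itaconate and tryptophan metabolism were among the most changed. Of 11 tested, 10 rose, as did 7 of the 8 that would have passed the filter on the M0 libraries alone. *Irg1* (current symbol *Acod1*), which makes itaconate from cis-aconitate, had 45.8 and 56.3 CPM in the wt and 42.9 and 45.2 CPM in the Treml4-/- libraries at M0, and 6628 and 7025 CPM in the wt and 7648 and 7082 CPM in the Treml4-/- libraries at 12 h. No 12 h library was below 6628 CPM and no M0 library above 56.3 CPM, a log2 fold change of 7.20 (SE 0.09, limma with Benjamini-Hochberg adjusted p = 3.0e-13). Enzymes and carriers that serve *Nos2* also rose, *Slc7a2*, the arginine importer, by 6.94, *Ass1*, which rebuilds arginine from citrulline, by 4.15 and *Gch1*, which begins the synthesis of the cofactor tetrahydrobiopterin, by 2.20. *Asl*, the step after *Ass1*, was -0.77 and 0.06 on the 2 scales, lower in CPM only and with the sign turned after scaling.

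*Arg1*, which competes with nitric oxide synthase for arginine and marks alternative activation, also rose. It had 0.309 and 0.0590 CPM in the wt and 0.163 and 0.168 CPM in the Treml4-/- libraries at M0, and 123 and 24.4 CPM in the wt and 96.7 and 65.6 CPM in the Treml4-/- libraries at 12 h. The 12 h libraries spread widely, wt replicate 2 being the lowest and wt replicate 1 the highest, and the log2 fold change was 5.84 (SE 0.39, limma with Benjamini-Hochberg adjusted p = 7.4e-08). *Arg2*, the mitochondrial arginase, rose by 4.05, and *Ido1* and *Kynu* of tryptophan breakdown by 4.15 and 2.90.

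Glycolysis and the tricarboxylic acid (TCA) cycle moved apart. Of 20 glycolysis genes, 16 rose (80.0%) and 2 fell (10.0%), with a median of 1.64 in CPM and 2.48 after scaling. Of 23 TCA cycle genes none rose and 10 fell (43.5%), with a median of -1.10 in CPM and -0.27 after scaling. Of all genes, 16.3% rose and 32.6% fell. *Pfkfb3*, which makes the activator of phosphofructokinase, had 28.6 and 29.0 CPM in the wt and 29.0 and 28.1 CPM in the Treml4-/- libraries at M0, and 2357 and 2037 CPM in the wt and 2134 and 2155 CPM in the Treml4-/- libraries at 12 h. Its replicates differed by little against a log2 fold change of 6.19 (SE 0.06, limma with Benjamini-Hochberg adjusted p = 8.8e-14). The glucose importer *Slc2a1* (GLUT1) rose by 3.21 and the lactate exporter *Slc16a3* (MCT4) by 3.06.

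Along the pathway, *Hk1*, *Hk2* and *Hk3*, the hexokinases, rose by 1.92, 1.95 and 2.64, *Pfkl* and *Pfkp* by 2.23 and 2.06, and *Ldha*, which makes lactate, from 787 to 2686 CPM. *Pkm*, the step that yields pyruvate, was 0.36 and 1.21 on the 2 scales and *Aldoa* 0.23 and 1.09, both higher after scaling only. The isoforms *Pfkm* and *Aldoc*, typical of muscle and brain, fell, at -1.54 and -1.78.

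In the TCA cycle list, which includes the cytosolic *Idh1*, the isocitrate dehydrogenases *Idh1* and *Idh2* fell most. *Idh1*, the cytosolic form, had 399.9 and 327 CPM in the wt and 352 and 342 CPM in the Treml4-/- libraries at M0, and 19.2 and 17.8 CPM in the wt and 26.4 and 23.7 CPM in the Treml4-/- libraries at 12 h. *Idh2*, the mitochondrial form that uses NADP, had 67.1 ± 8.93 CPM at M0 and 3.47 ± 1.07 CPM at 12 h (SD, n = 4). Their log2 fold changes were -3.98 (SE 0.10, limma with Benjamini-Hochberg adjusted p = 6.7e-11) and -3.96, and no 12 h library reached an M0 library for either gene. The NAD-dependent subunits *Idh3a* and *Idh3g* fell, at -2.27 and -2.33, fumarase (*Fh1*) at -2.68 and *Suclg2* at -2.53. *Sdha*, a subunit of succinate dehydrogenase, fell by 1.34 in CPM and was -0.50 after scaling, the latter not called without Treml4-/- M0 replicate 1, at -0.47. *Cs*, which makes citrate, and *Mdh2* were lower in CPM only, at -0.87 and -0.02 and at -1.04 and -0.20.

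The cell cycle held most of the deepest falls on the log2(CPM + 1) scale, which bounds a fall by the level at M0. Of 38 genes, 29 fell and 4 rose, beside 32.6% and 16.3% of all genes, with a median of -3.79 in CPM and -3.04 after scaling, and the same numbers, 29 and 4, were found without wt M0 replicate 2. Of the 25 that would have passed the filter on the 12 h libraries alone, 17 fell. *Top2a*, the topoisomerase of dividing cells, had 326 and 129 CPM in the wt and 298 and 328 CPM in the Treml4-/- libraries at M0, and 0.710 and 0.457 CPM in the wt and 0.750 and 0.712 CPM in the Treml4-/- libraries at 12 h. Every 12 h library was under 1 CPM, and the log2 fold change was -7.26 (SE 0.23, limma with Benjamini-Hochberg adjusted p = 2.6e-10). Without wt M0 replicate 2, whose 129 CPM was the lowest at M0, it was -7.58.

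The mitotic cyclins *Ccna2*, *Ccnb1* and *Ccnb2* fell, with log2 fold changes of -6.71, -5.98 and -6.31, as did the kinase *Plk1* at -6.37 and the activator of the anaphase-promoting complex, *Cdc20*, at -6.30. *Kif20a*, *Racgap1*, *Anln* and *Kif2c*, which act in the spindle and in cytokinesis, had log2 fold changes of -6.71, -6.62, -6.31 and -6.09. *Ube2c*, *Cdca3* and *Bub1b* completed the cell cycle genes among the 15 largest falls, which otherwise held *Zfyve28* at -6.18 and *Cxcr4* at -6.00. Of the DNA replication genes, *Mcm6* fell by 3.72 and *Rrm2*, of nucleotide reduction, at -5.36. Without wt M0 replicate 2, low in most of these genes, the changes were larger, at -6.98 for *Ccna2*, -6.54 for *Plk1*, -3.82 for *Mcm6* and -5.70 for *Rrm2*, which moved furthest, and between -6.86 and -6.14 for the other 10 that fell. *Pcna* was -0.73 and 0.11 on the 2 scales, lower in CPM only and with the sign turned after scaling.

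The genes that rose act at the entry into the cycle or stop it. The D cyclins *Ccnd1* and *Ccnd2* rose by 2.86 and 5.55, *Ccne1* by 1.65, and *Cdkn1a* (p21), an inhibitor of cyclin-dependent kinases, from 220.3 to 921 CPM. *Ccnd2* had 0.251 and 0.177 CPM in the wt and 0.285 and 0.187 CPM in the Treml4-/- libraries at M0, and 45.1 and 97.4 CPM in the wt and 49.4 and 46.8 CPM in the Treml4-/- libraries at 12 h, with wt replicate 2 at 12 h the highest.

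Most cholesterol synthesis genes fell. Of 21 genes, 16 fell (76.2%), 4 fell in CPM only and none rose on both scales, with a median of -1.71 in CPM and -0.89 after scaling. Of all genes, 32.6% fell. Of the 20 that would have passed the filter on the 12 h libraries alone, 15 fell. *Dhcr7*, a reductase of the last steps of the pathway, had 26.7 and 30.4 CPM in the wt and 31.6 and 28.8 CPM in the Treml4-/- libraries at M0, and 1.42 and 0.893 CPM in the wt and 1.79 and 1.72 CPM in the Treml4-/- libraries at 12 h. The ranges were far apart, and the log2 fold change was -3.64 (SE 0.11, limma with Benjamini-Hochberg adjusted p = 1.3e-10). *Sqle* (squalene epoxidase) fell by 3.31, *Mvd* at -2.57 and *Srebf2*, the transcription factor of the pathway, from 279.9 to 49.1 CPM.

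Of 12 genes of cholesterol efflux and the liver X receptor, 2 rose and 3 fell. *Ch25h*, which makes 25-hydroxycholesterol and is induced by interferon, went from 0.201 to 71.0 CPM, and *Abca1*, the efflux pump, from 46.7 to 146 CPM. *Apoe* had 1879 ± 247 CPM at M0 and 548 ± 91.6 CPM at 12 h (SD, n = 4) and fell by 1.78, as did *Apoc2* at -2.04. Of 30 lysosomal genes, 6 rose (20.0%), 8 fell (26.7%) and 11 fell in CPM only, near the shares of all genes, 16.3% and 32.6% on both scales and 27.7% in CPM only. *Ctsc*, the protease that activates granule enzymes, rose by 4.22 and *Lamp2* by 1.17, while *Lipa*, the acid lipase, fell by 2.43, *Atp6v0d2* at -2.57 and *Tfeb*, a transcription factor of lysosomal genes, at -2.45.

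Of 17 genes of antigen presentation by MHC class I, 14 rose and 3 were higher after scaling only, with a median of 1.80 in CPM and 2.64 after scaling. *Tap1*, a subunit of the peptide transporter, had 59.2 and 61.2 CPM in the wt and 62.0 and 60.4 CPM in the Treml4-/- libraries at M0, and 808 and 849 CPM in the wt and 695 and 770.4 CPM in the Treml4-/- libraries at 12 h, and its log2 fold change was 3.66 (SE 0.06, limma with Benjamini-Hochberg adjusted p = 3.9e-12). *Nlrc5*, the transactivator of class I genes, rose by 3.35, *H2-T23* by 2.54, the immunoproteasome subunits *Psmb8*, *Psmb9* and *Psmb10* by 1.49, 2.18 and 1.99 and *B2m* by 1.67. *H2-D1* and *H2-K1*, whose reads could be split among class I paralogs, rose by 0.52 and 0.91, but *H2-D1* turned to -0.11 under quantile normalization and was not called in CPM without wt 12 h replicate 2, at 0.47, or without wt M0 replicate 1, at 0.44.

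MHC class II changed less evenly. Of 12 genes, 4 rose, *Ifi30* fell and 4 were higher after scaling only, and without wt M0 replicate 2 the number that rose was 6 (3 without wt 12 h replicate 2). *H2-Ab1* had 56.3 and 149.8 CPM in the wt and 65.9 and 68.9 CPM in the Treml4-/- libraries at M0, and 246 and 452 CPM in the wt and 258 and 283 CPM in the Treml4-/- libraries at 12 h. Replicate 2 of wt was the highest at both times, but the groups did not overlap, and the log2 fold change was 1.92 (SE 0.27, limma with Benjamini-Hochberg adjusted p = 3.7e-05), or 2.21 without wt M0 replicate 2. *H2-Aa* had 59.8 and 165 CPM in the wt and 75.0 and 74.7 CPM in the Treml4-/- libraries at M0, and 96.5 and 232 CPM in the wt and 123 and 130.2 CPM in the Treml4-/- libraries at 12 h, where wt M0 replicate 2 lay above 3 of the 12 h libraries, and a log2 fold change of 0.67 in CPM was not called (limma with Benjamini-Hochberg adjusted p = 0.0588), although 1.51 after scaling was. Without wt M0 replicate 2 or without wt 12 h replicate 1, *H2-Aa* was called in CPM, at 0.97 and 0.93, as it was in the Treml4-/- libraries alone, at 0.75. With the replicate number as a block, *H2-Aa* was also called in CPM, at 0.67, though nothing says that the numbers mark a shared culture. *Cd74*, the invariant chain, rose by 1.27 (1.57 without wt M0 replicate 2), with 649.6 CPM in wt M0 replicate 2, the highest at M0, and 695 CPM in the lowest 12 h library. *Ciita*, the transactivator of class II genes, was lower in CPM only and was -0.19 after scaling.

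Of 12 costimulatory and checkpoint genes, 10 rose (83.3%) and 2 fell (16.7%), beside 16.3% and 32.6% of all genes. Of the 9 that would have passed the filter on the M0 libraries alone, 7 rose. *Cd40* went from 4.56 to 788 CPM, *Cd86* from 2.86 to 367 CPM, and *Cd274*, which encodes PD-L1, had 72.5 ± 4.76 CPM at M0 and 3636 ± 195 CPM at 12 h (SD, n = 4). *Cd80* rose by 1.30. *Icosl* fell by 2.47 and *4632428N05Rik* (current symbol *Vsir*, encoding the checkpoint protein VISTA) at -3.18.

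Of 16 prostaglandin and leukotriene genes, 3 rose and 8 fell, and the cyclooxygenases moved in opposite directions. *Ptgs2* had 0.366 and 1.14 CPM in the wt and 0.896 and 0.411 CPM in the Treml4-/- libraries at M0, and 1821 and 2015 CPM in the wt and 1774 and 1517 CPM in the Treml4-/- libraries at 12 h, a log2 fold change of 10.05 (SE 0.14, limma with Benjamini-Hochberg adjusted p = 9.2e-13). *Ptgs1*, the constitutive cyclooxygenase, had 82.8 and 69.8 CPM in the wt and 70.6 and 66.3 CPM in the Treml4-/- libraries at M0, and 2.36 and 1.59 CPM in the wt and 2.40 and 2.26 CPM in the Treml4-/- libraries at 12 h, a log2 fold change of -4.55. Neither gene had overlapping groups. *Ptges*, the inducible prostaglandin E synthase, rose by 4.80 and *Pla2g4a*, the phospholipase that frees arachidonic acid, by 3.58. Of the leukotriene branch, *Alox5* fell by 3.11, *Alox5ap* at -2.70, *Ltc4s* at -2.67 and *Lta4h* at -2.33.

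Of 24 antioxidant and iron genes, 14 rose and 4 fell. *Hmox1*, which degrades haem, had 553 and 537 CPM in the wt and 629.8 and 593 CPM in the Treml4-/- libraries at M0, and 7097 and 5788 CPM in the wt and 6890 and 7182 CPM in the Treml4-/- libraries at 12 h, and its log2 fold change was 3.54 (SE 0.07, limma with Benjamini-Hochberg adjusted p = 1.4e-11). All 12 h libraries were at least 5788 CPM and all M0 libraries at most 630 CPM. *Saa3* reached 12340 ± 795 CPM from 11.9 ± 1.66 CPM (SD, n = 4). The mitochondrial superoxide dismutase *Sod2*, the peroxiredoxin *Prdx5* and the cystine importer *Slc7a11* rose by 3.20, 3.23 and 3.41, and *Lcn2*, which binds bacterial siderophores, by 4.13. The ferritin chains parted, *Fth1* rising by 0.91 and *Ftl1* falling, at -1.53, both with many processed copies in the genome among which reads could be split. *Tfrc*, the transferrin receptor, fell by 2.23 and *Nqo1* at -2.29.

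Of 27 receptors for chemokines and growth factors, 13 rose (48.1%) and 6 fell (22.2%), beside 16.3% and 32.6% of all genes. Of the 24 that would have passed the filter on the M0 libraries alone, 10 rose. Of the 26 that would have on the 12 h libraries alone, 5 fell. *Cxcr4*, which retains cells in bone marrow, had 299 and 289.9 CPM in the wt and 291 and 279.7 CPM in the Treml4-/- libraries at M0, and 3.82 and 4.54 CPM in the wt and 2.54 and 3.47 CPM in the Treml4-/- libraries at 12 h, and *Cx3cr1*, the fractalkine receptor, had 72.1 ± 10.3 CPM at M0 and 0.803 ± 0.106 CPM at 12 h (SD, n = 4). Their log2 fold changes were -6.00 (SE 0.10, limma with Benjamini-Hochberg adjusted p = 2.7e-12) and -5.33. *Csf1r*, the M-CSF receptor and a macrophage marker, had 5675 and 7203 CPM in the wt and 5786 and 5521 CPM in the Treml4-/- libraries at M0, and 1266 and 1224 CPM in the wt and 1399 and 1281 CPM in the Treml4-/- libraries at 12 h, and fell by 2.22 in CPM and was -1.37 after scaling. *Ifngr1* fell by 2.94 and *C5ar1* at -3.47. The formyl peptide receptors *Fpr1* and *Fpr2* rose by 5.32 and 6.13, *Ccrl2* by 5.21, *Ccr7*, the lymph node homing receptor, by 3.73 and *Il4ra* by 2.83.

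Of 19 markers of resident and alternatively activated macrophages, 9 fell (47.4%) and 4 rose (21.1%), beside 32.6% and 16.3% of all genes, about the same ratio. Of the 17 that would have passed the filter on the 12 h libraries alone, 7 fell. *Pparg*, a nuclear receptor of lipid handling, went from 36.9 to 0.795 CPM, *Gas6* from 56.3 to 3.81 CPM and *Mrc1*, the mannose receptor, from 56.2 to 16.1 CPM. *Mertk* and *Axl*, receptors for apoptotic cells that bind GAS6, rose by 2.50 and 1.84, and the transcription factor *Maf* rose by 2.94. Of the complement genes, *C1qa* and *C1qc* were -0.20 and 0.64 and 0.13 and 0.98 on the 2 scales, higher after scaling only and in *C1qa* with the sign turned, and *C1qb* rose by 0.55, a call in CPM that was lost without wt M0 replicate 1, at 0.47.

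In the TREM family, to which *Treml4* belongs, 2 of 8 genes rose and 3 fell. *Trem2*, the lipid-sensing receptor, had 942 and 1177 CPM in the wt and 1082 and 1027 CPM in the Treml4-/- libraries at M0, and 119 and 136 CPM in the wt and 139 and 141 CPM in the Treml4-/- libraries at 12 h. Its groups did not overlap, and its log2 fold change was -2.97 (SE 0.08, limma with Benjamini-Hochberg adjusted p = 7.5e-11), while the adaptor *Tyrobp* (DAP12) fell by 1.47. *Treml2* had 2.14 and 1.32 CPM in the wt and 2.14 and 2.02 CPM in the Treml4-/- libraries at M0, and 109 and 101 CPM in the wt and 95.0 and 102 CPM in the Treml4-/- libraries at 12 h, a rise of 5.15, and *Trem1*, a receptor that amplifies inflammation, rose by 1.33 from 0.805 to 3.77 CPM. *Treml4* itself, present in wt only, had mean values of 7.46 and 11.5 CPM over the 2 wt libraries at M0 and 12 h.

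Of 25 genes of the inflammasome and cell death, 17 rose (68.0%), beside 16.3% of all genes, and *Nlrp1b* fell. Of the 23 that would have passed the filter on the M0 libraries alone, 15 rose. *Nlrp3*, a sensor, rose by 2.31, *Casp1* by 2.30, *Casp4* (caspase-11), which binds cytosolic LPS, by 3.52, *Zbp1* by 5.46 and *Mlkl*, the effector of necroptosis, by 3.04. *Pycard* (ASC), the inflammasome adaptor, was -1.26 and -0.43 on the 2 scales, lower in CPM only, and *Gsdmd*, the pore protein, was 0.12 and 0.96, higher after scaling only. The survival genes *Cflar* and *Bcl2l1* rose by 3.42 and 1.84, and *Il18bp*, which neutralizes interleukin-18, by 5.37.

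**Figure D3:**
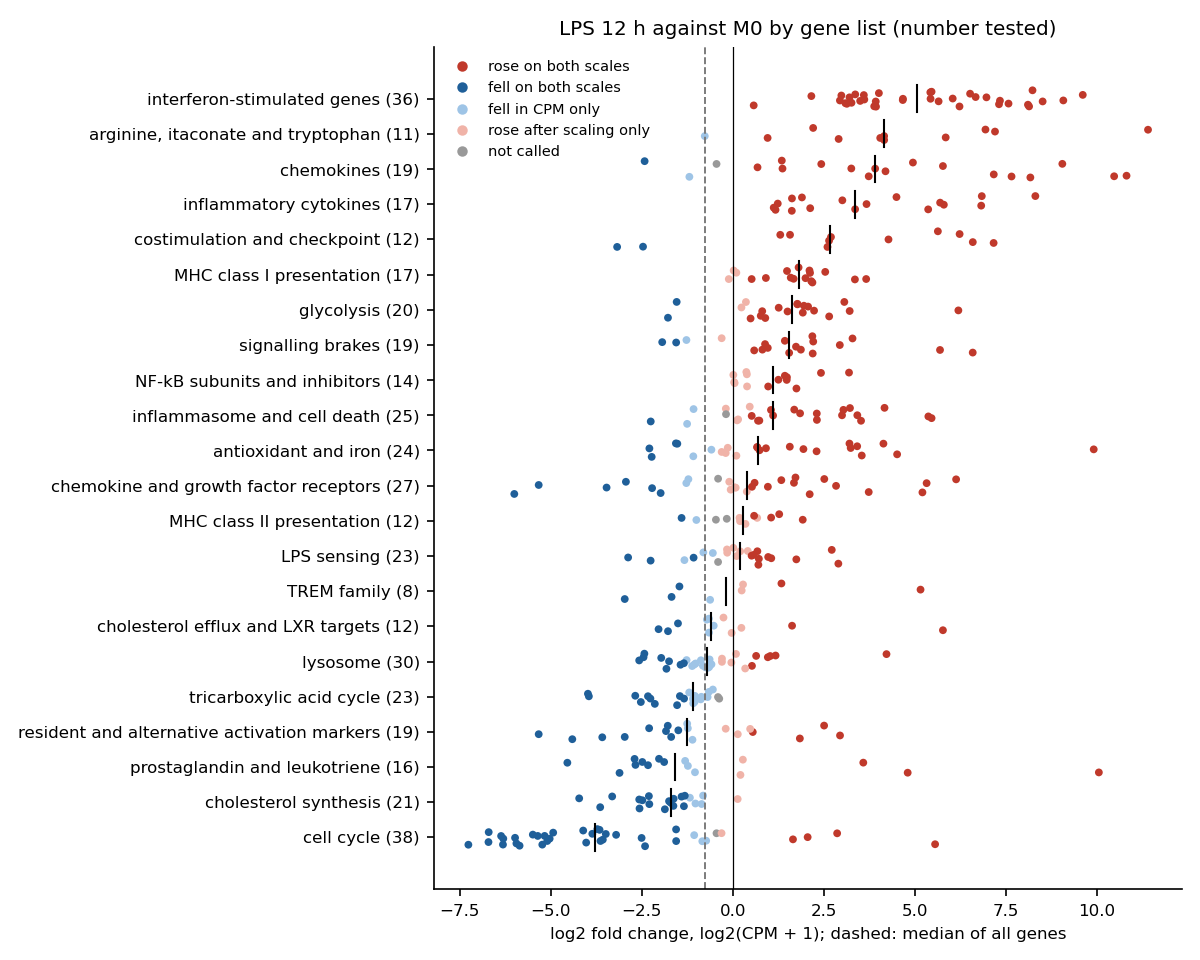
Log2 fold changes in CPM at LPS 12 h against M0 of the members of 22 gene lists, 1 point per gene, coloured by the call on both scales, with a black bar at the median of each list and the dashed line at the median of all genes, -0.76. Interferon-stimulated genes lie furthest to the right, with a median of 5.05, and cell cycle genes furthest to the left, with a median of -3.79.

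The libraries at 8 h show which of these changes were still under way. In a direct comparison of 12 h with 8 h by the same limma test and thresholds, which uses no M0 library but shares the 12 h libraries with the comparison above, 1627 genes (13.5%) were higher and 2049 (17.0%) lower at 12 h on both scales. Of the 1966 genes that rose, 521 (26.5%) were higher at 12 h than at 8 h and 331 (16.8%) lower. Of the 3935 that fell, 311 (7.90%) were higher and 1061 (27.0%) lower. Of the 855 called on neither scale, 12.2% were higher and 11.9% lower. Since genes that rose or fell were chosen with the same 12 h libraries, a lean in their own direction is built into these shares, and they are a description.

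Cytokines and NF-kB regulators were more often lower than higher at 12 h. Of 17 cytokines 9 were lower and 2 higher, and of 14 NF-kB genes 8 were lower and none higher. Of all tested genes, 17.0% were lower and 13.5% higher on both scales. *Tnf* had 40.7 ± 6.06 CPM at M0, 615 ± 37.9 CPM at 8 h and 180.5 ± 23.1 CPM at 12 h (SD, n = 4), *Il12b* went from 307 to 58.0 CPM and *Il27* from 872 to 188 CPM between 8 h and 12 h. Their log2 changes between these times were -1.77, -2.39 and -2.21, *Il6* and *Ifnb1* changed by -1.98 and -2.27, and *Tnfaip3* by -1.11. *Il1a* and *Il15* were higher at 12 h, by 0.92 and 0.65.

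Glycolysis went the other way, with 15 of 20 genes higher at 12 h than at 8 h and *Pfkp* lower, beside 13.5% and 17.0% of all genes. *Pfkfb3* had 28.7 ± 0.423 CPM at M0, 826 ± 46.4 CPM at 8 h and 2171 ± 134 CPM at 12 h (SD, n = 4), and *Slc2a1*, *Slc16a3* and *Hk1* were higher by 0.88, 0.99 and 1.22. *Hmox1* was higher at 12 h by 1.81 and *Arg1* by 3.45, from 5.70 ± 2.62 to 77.5 ± 42.5 CPM (SD, n = 4). Of the 36 interferon-stimulated genes, 7 were higher at 12 h and 3 lower, beside 13.5% and 17.0% of all genes, and 26 did not differ by the rule. Among the higher were *Rsad2* and *Irf7* at 0.92 and 0.92, and among the lower *Gbp2* at -0.75.

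In the cell cycle list 23 of 38 were lower at 12 h than at 8 h and 3 higher, beside 17.0% and 13.5% of all genes. *Top2a* had 269.9 ± 95.1 CPM at M0, 7.89 ± 3.97 CPM at 8 h and 0.657 ± 0.135 CPM at 12 h (SD, n = 4), and *Ccnb2* changed by -2.53 between 8 h and 12 h, while *E2f1* was higher at 12 h by 1.41. In cholesterol synthesis 10 of 21 were lower at 12 h, with *Fdps* at -1.55, and *Mvd* was higher at 0.61. *Idh2* was lower, at -2.36, *C5ar1* at -2.61 and *Trem2* at -0.98. *Tlr13*, which was lower than at M0 in CPM only, was higher at 12 h than at 8 h by 1.73.

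**Figure D4:**
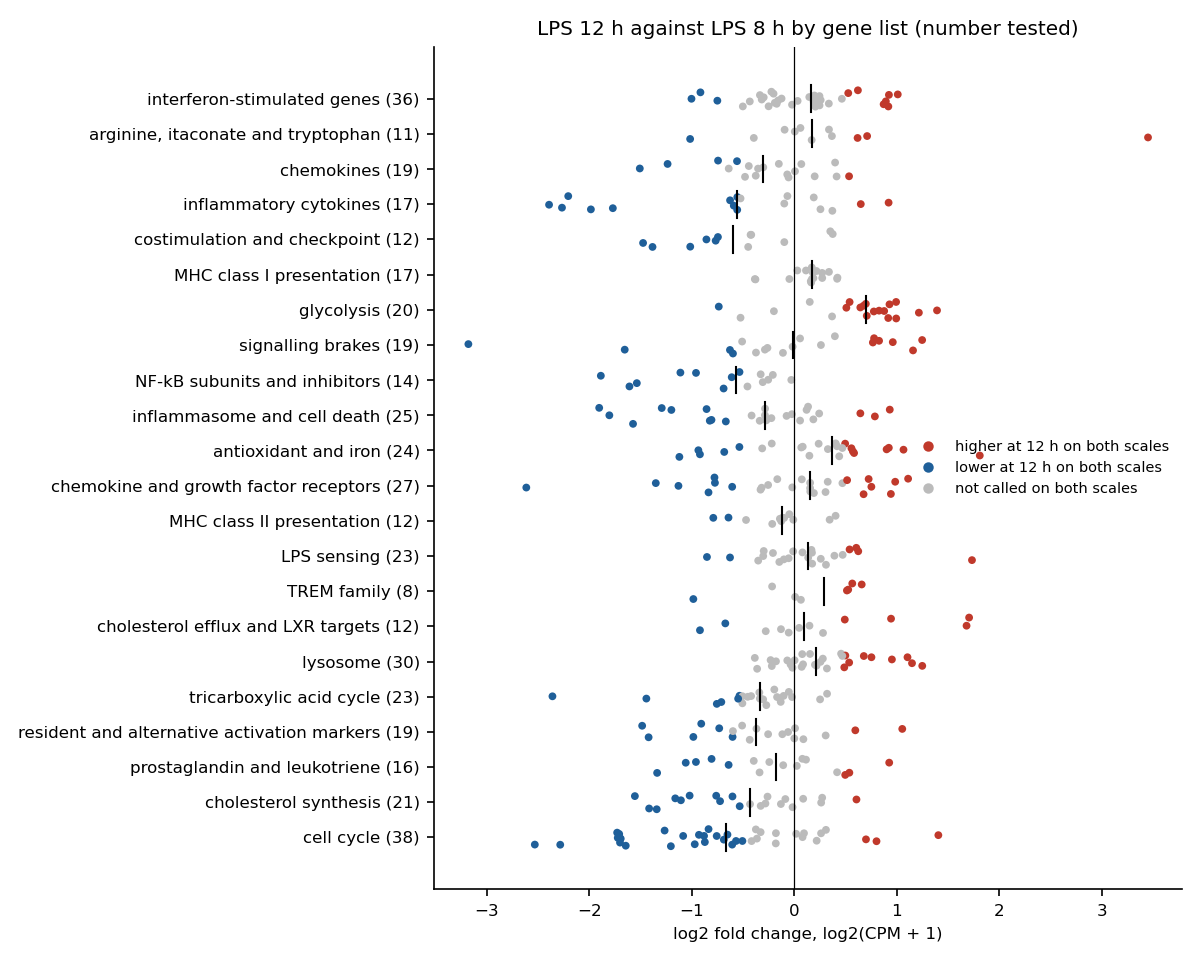
Log2 fold changes in CPM at LPS 12 h against LPS 8 h of the members of the same 22 lists, in the same order, 1 point per gene, with a black bar at the median of each list. Glycolysis has the highest median, 0.70, the cell cycle list the lowest, -0.67, and *Arg1* is the point furthest to the right, at 3.45.

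The response was also compared between genotypes. All 9251 genes called in CPM had the same sign in wt and in Treml4-/- cells. Since these genes were chosen by their pooled change in the same libraries, a shared sign is largely built in. It is given as a description and is no test of whether the genotypes respond alike. The 4 wt libraries alone gave 9277 calls in CPM and the 4 Treml4-/- libraries alone 9201. The difference of the LPS effect between genotypes was called for 1 of 12086 genes (0.00827%), and 542 genes had an unadjusted p under 0.05 by limma. The count depended on single libraries: without wt M0 replicate 1 it was 66, without wt 12 h replicate 1 it was 7 and without wt M0 replicate 2 it was 3, where the lone library of that group was taken to vary like the others.

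That gene was *Pydc3*, of the family of interferon-inducible DNA sensors on chromosome 1, whose close relatives make its read counts uncertain. It had 0.0193 and 0.0787 CPM in the wt and 0.550 and 0.636 CPM in the Treml4-/- libraries at M0, and 4.01 and 3.61 CPM in the wt and 307 and 301 CPM in the Treml4-/- libraries at 12 h. The log2 fold change was 2.20 in wt and 7.58 in Treml4-/- cells, a difference of -5.39 (SE 0.16, limma with Benjamini-Hochberg adjusted p = 8.7e-07). With limma voom on the recovered reads, and with the deposited log2 CPM used directly, no gene was called (475 and 548 at an unadjusted p under 0.05). On these scales, which do not add 1 CPM, the difference for *Pydc3* was -2.74 and -2.58, limma with Benjamini-Hochberg adjusted p = 1 and adjusted p = 0.96. For *Nos2*, *Rsad2* and *Top2a* the differences were 0.15, 0.18 and 0.47, none of them called.

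**Figure D5:**
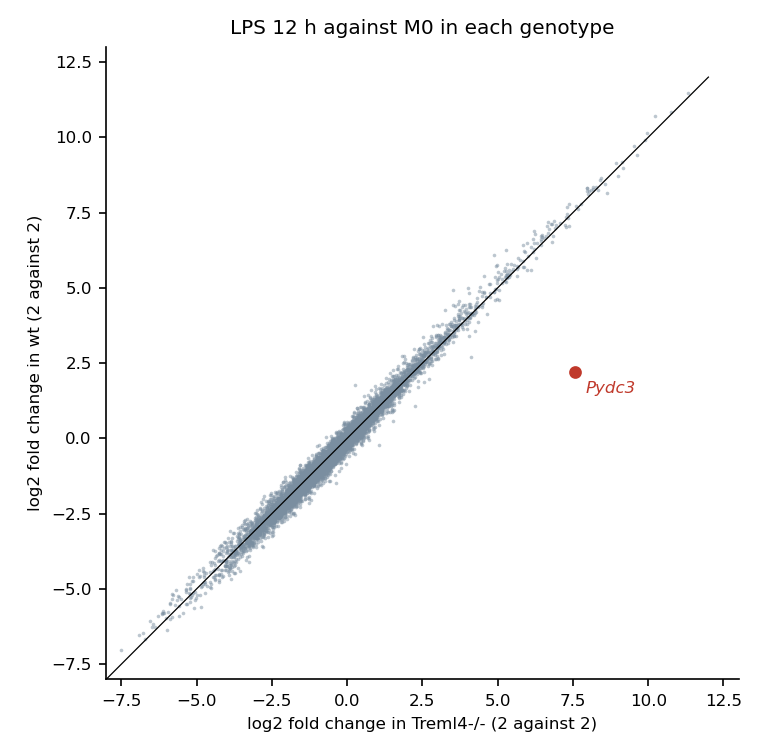
Log2 fold change at LPS 12 h against M0 in wt (y axis, 2 against 2 libraries) and in Treml4-/- cells (x axis, 2 against 2) for 12086 genes, 1 point per gene, with the line of equal change. *Pydc3*, in red, at 7.58 in Treml4-/- and 2.20 in wt cells, is the gene called for the difference.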

How the data were processed

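RNA-seq was made by the submitters from BMDM of wt and Treml4-/- mice at M0 and after 8 h and 12 h of LPS, 2 libraries per condition, 12 in all. Libraries were stranded and poly(A)-selected, sequenced as paired ends of 126 bp. Per the labels, reads were aligned with STAR to mm10, and the study's methods name Subread for counting. Tool versions, and whether counting used the strand, are not given in the sources used here.

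The authors deposited log2 CPM per gene, made with a prior of 0.25 reads. Whole reads were recovered from these values for 100% of entries (tolerance 0.01 reads), which gave the library totals of 48008751 to 58500792. CPM were recomputed without the prior, and all tests used log2(CPM + 1). No gene name was blank and no column lacked a sample.

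limma 3.58.1 (R 4.3.3) with a trended prior variance was fitted to the 4 LPS 12 h and 4 M0 libraries with genotype as a covariate, to the same libraries with a genotype by LPS interaction, and to the 12 h and 8 h libraries. Genes needed at least 1 CPM in 2 of the 12 libraries. Calls needed a Benjamini-Hochberg adjusted p under 0.05 over all tested genes and a 1.4-fold change, the thresholds of the study. Each fit was repeated after median of ratios scaling, and genes were said to rise or fall only if called on both scales. The comparison of 12 h with M0 in CPM was tested on simulated data. Few genes changed there, as many up as down, so the choice of scale was not tested. Tables were made with Python 3.11.15, numpy 2.4.6, pandas 2.3.3 and scipy 1.17.1.

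The gene lists and the members to describe were chosen with earlier results of these data known. Named genes were the 15 largest changes in each direction without overlap of the libraries and, of each of 22 pathway lists, the largest changes, members against the trend, the highest expressed member and members whose role defines the list, apart from some genes that are not reported here. Alternatives were other scalings, filters and pseudocounts, voom on the recovered reads, the replicate block, each genotype alone and leaving out each library. Those that combine scaling with another choice were chosen after seeing the data. Promoter sequences are from RefSeq (GRCm38.p6). Mapped positions and biotypes are from an annotation of GRCm38, the assembly behind mm10.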

Additional observations from a re-analysis of the deposited data

Results flagged for a closer look

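Among the 229 genes named above, 458 groups of 4 libraries were looked at, M0 and 12 h apart, on the log2(CPM + 1) scale. In 52 of them 1 library lay further from the other 3 than Dixon's 95% critical ratio for 4 values allows, where chance gives about 1 in 20 groups (22.9). The libraries apart were wt M0 replicate 2 in 26 groups and wt 12 h replicate 2 in 13.

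Wt M0 replicate 2 was low in the cell cycle genes *Bub1b* at 93.1 CPM (173 to 184 in the others), *Ccna2* at 64.8 CPM (129 to 145 in the others), *Ccnb1* at 65 CPM (116 to 121 in the others) and *Ccnb2* at 106 CPM (159 to 170 in the others). It was also low in the cell cycle genes *Ccne1* at 2.4 CPM (3.86 to 4.22 in the others), *Cdc20* at 68.7 CPM (104 to 110 in the others), *Kif20a* at 116 CPM (183 to 194 in the others) and *Mcm6* at 64.4 CPM (91.4 to 96.6 in the others). The same library was low for the cell cycle genes *Plk1* at 68.5 CPM (110 to 121 in the others), *Rrm2* at 21 CPM (56.9 to 58.5 in the others) and *Top2a* at 129 CPM (298 to 328 in the others). Values were low as well for *Anln* at 50 CPM (100 to 107 in the others), *Cdca3* at 80.7 CPM (135 to 144 in the others), *Isg15* at 10.8 CPM (13 to 13.1 in the others) and *Kif2c* at 46.4 CPM (78.5 to 84.9 in the others). Also low in that library were *Mrc1* at 36.8 CPM (62 to 63 in the others), *Pla2g4a* at 10.1 CPM (13.8 to 14 in the others), *Racgap1* at 108 CPM (192 to 205 in the others) and *Treml2* at 1.32 CPM (2.02 to 2.14 in the others). It was also low in *Ube2c* at 69.2 CPM (114 to 119 in the others). The same library was high for *Cxcl11* at 0.177 CPM (0.0579 to 0.0748 in the others), *Cxcl3* at 0.0787 CPM (0.0374 to 0.0407 in the others), *H2-K1* at 1130 CPM (905 to 925 in the others) and *Ltc4s* at 8.36 CPM (6.91 to 7.1 in the others). Values were high as well for *Prdx5* at 223 CPM (181 to 186 in the others) and *Upp1* at 0.61 CPM (0.386 to 0.412 in the others).

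Wt 12 h replicate 2 was low in the cell cycle genes *Bub1b* at 1.19 CPM (1.58 to 1.62 in the others), *Ccnb2* at 0.635 CPM (0.921 to 0.979 in the others) and *Top2a* at 0.456 CPM (0.71 to 0.75 in the others). It was also low in *Idh2* at 1.91 CPM (3.78 to 4.29 in the others), *Mrc1* at 7.76 CPM (17.5 to 20 in the others) and *Ptgs1* at 1.59 CPM (2.26 to 2.4 in the others). The same library was high for the cell cycle genes *Ccnd2* at 97.4 CPM (45.1 to 49.4 in the others) and *Ccne1* at 19.2 CPM (11.6 to 12.2 in the others). Values were high as well for *Gbp5* at 2000 CPM (1590 to 1620 in the others), *Il15* at 175 CPM (129 to 134 in the others), *Nfkb1* at 245 CPM (149 to 160 in the others) and *Relb* at 72.1 CPM (62.9 to 64.2 in the others). Also high in that library were *Tnfaip3* at 492 CPM (385 to 397 in the others).

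Wt M0 replicate 1 was low in *Hk3* at 378 CPM (430 to 442 in the others) and *Il1rn* at 25.7 CPM (35.4 to 36.4 in the others).

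Wt 12 h replicate 1 was low in *Ido1* at 13.9 CPM (19.5 to 20.4 in the others), *Lipa* at 582 CPM (701 to 718 in the others), *Slfn4* at 312 CPM (494 to 498 in the others) and *Srebf2* at 44.6 CPM (50.1 to 51.1 in the others). It was also low in *Tnf* at 146 CPM (188 to 196 in the others). The same library was high for *Arg2* at 45.4 CPM (36.4 to 37 in the others).

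Treml4-/- M0 replicate 1 was low in *Maf* at 21.5 CPM (27.5 to 28.4 in the others). It was also high in *Cs* at 318 CPM (303 to 304 in the others).

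Treml4-/- 12 h replicate 1 was low in *Dhx58* at 312 CPM (337 to 341 in the others). It was also high in *Cxcl2* at 91.5 CPM (68.2 to 70 in the others).

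Treml4-/- 12 h replicate 2 was low in *Cxcl9* at 4500 CPM (4960 to 5010 in the others).

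*Pydc3* was the gene whose LPS effect differed between the genotypes by the interaction term of limma, at -5.39 on the log2 scale for wt minus Treml4-/- cells, the change being 2.20 in wt and 7.58 in Treml4-/- cells.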

How the results depend on the processing

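The CPM counts of higher and lower genes moved with the scaling. Higher calls went from 1966 (1936 to 1997 without 1 library) to 3946 with median of ratios scaling, 3947 with the block added, 3984 with the filter on scaled values, 3932 and 3991 in Treml4-/- and wt libraries alone, 3920 to 3964 without 1 library, and 3596 under quantile normalization. Lower calls went from 7285 (7175 to 7341 without 1 library) to 3935, 3935, 3849, 3929 and 3984, 3916 to 3970, and 4338 in the same order. All-gene medians were -0.76 in CPM, -0.04 scaled and -0.12 under quantile normalization, which each scale sets by its construction. The total of 9251 calls was 7707 with a filter at 5 CPM, 9602 without a filter, 9572 with a pseudocount of 0.1 CPM, 9592 with voom and 9172 to 9282 without 1 library. Genes that rose on both scales numbered 1936 to 1997 without 1 library, and those that fell 3916 to 3970.

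The interaction count of 1 was 0 with the deposited log2 CPM and 0 with voom, and 1 to 66 genes were called without 1 library, and 1 to 41 when scaled. For 12 h against 8 h, dropping the minimum fold raised 3884 calls to 7440, of which 3201 were higher and 4239 lower.

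Replicate numbers are in the titles but nothing says that they mark a shared animal or culture. Deviations of same-numbered libraries correlated at 0.062 in wt and -0.199 in Treml4-/- cells between M0 and 12 h and at 0.406 and -0.272 between 8 h and 12 h, not over 0.1 in every pair, so the numbers were not taken as pairs. With the number as a replicate block, 9253 genes were called at 12 h against M0, 1968 rose and 3935 fell on both scales, *H2-Aa* was called in CPM (0.67, limma adjusted p = 8.9e-06), 1 gene was called for the interaction and 3886 for 12 h against 8 h.

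Directions that turned under another scale were these. *Asl* (-0.77 in CPM, -0.81 to -0.73 without 1 library) was 0.0614 after scaling, with or without the block or the scaled filter, 0.0771 in scaled wt libraries alone, 0.0456 in scaled Treml4-/- libraries alone and 0.00615 to 0.11 when scaled without 1 library. *C1qa* (-0.20 in CPM, -0.26 to -0.12 without 1 library) was 0.64 after scaling, with or without the block or the scaled filter, 0.65 in scaled wt libraries alone, 0.64 in scaled Treml4-/- libraries alone and 0.56 to 0.72 when scaled without 1 library. *Ccl9* was 0.51 in scaled Treml4-/- libraries alone. *Ciita* was 0.20 in scaled Treml4-/- libraries alone. *Cs* (-0.87 in CPM, -0.88 to -0.85 without 1 library) was -0.0180 after scaling and 0.00853 in scaled wt libraries alone. When scaled without 1 library *Cs* took either sign, such as -0.0453 without wt 12 h replicate 1 and 0.0150 without Treml4-/- M0 replicate 1. *H2-D1* was -0.11 under quantile normalization. *Irak4* (-0.81 in CPM, -0.84 to -0.77 without 1 library) was 0.0177 after scaling, with or without the block or the scaled filter, 0.0390 in scaled Treml4-/- libraries alone and 0.00353 to 0.0404 when scaled without 1 library. *Pcna* (-0.73 in CPM, -0.78 to -0.70 without 1 library) was 0.11 after scaling, with or without the block or the scaled filter, 0.15 in scaled wt libraries alone, 0.0733 in scaled Treml4-/- libraries alone and 0.0558 to 0.15 when scaled without 1 library. *Tlr4* (-0.55 in CPM, -0.66 to -0.43 without 1 library) was 0.27 after scaling, with or without the block or the scaled filter, 0.12 in scaled wt libraries alone, 0.43 in scaled Treml4-/- libraries alone, 0.12 under quantile normalization and 0.17 to 0.39 when scaled without 1 library. The causes were not tested. All other named genes kept their sign wherever either value was called. Depth was even across libraries and limits only genes near 1 CPM, whose change log2(CPM + 1) understates.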

Other observations

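Families of genes grouped by symbol after the results were known, and named by their shared symbols, moved as follows, beside 16.3% of all tested genes that rose and 32.6% that fell. All 8 guanylate-binding protein genes, all 7 Schlafen genes and all 6 immunity-related GTPase genes tested rose, with median log2 fold changes of 6.97, 3.76 and 6.49 in CPM. Of 8 Ifi genes 7 rose, and of 12 Parp genes, which modify proteins with ADP-ribose, 7 rose and 2 fell. Of 39 tripartite motif genes, a family of ubiquitin ligases, 14 rose and 13 fell.

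Kinesins, centromere proteins and ribosomal proteins fell more often than the 32.6% of all genes. Of 30 kinesins 17 fell and 2 rose, and of 19 centromere proteins 16 fell and 1 rose. Among 88 cytosolic ribosomal protein genes 48 fell, 34 fell in CPM only and 1 rose, with a median of -1.40 in CPM and -0.55 after scaling, and among 76 mitochondrial ribosomal protein genes 39 fell and 1 rose. Of 44 subunits of respiratory complex I, 12 fell and 29 fell in CPM only, and of 17 ATP synthase subunits 3 fell and 12 fell in CPM only, shares of genes that fell on both scales below that of all genes. Of the proteasome subunits, 9 of 39 rose, 22 were higher after scaling only and 2 fell. Ribosomal protein genes have many processed copies, among which reads could be split.

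Among transcripts annotated as noncoding, 25 of 90 lincRNA genes rose and 28 fell, and 30 of 95 antisense genes rose and 22 fell. Whether counting used the strand is not given in the sources used here, so reads of an antisense gene and of its partner may not be separable. *Gm26667* (current symbol *Mir155hg*, the host of a microRNA that LPS induces) had at most 1 read in any M0 library and 7.77 ± 2.74 CPM at 12 h (SD, n = 4), at least 133-fold higher against a floor of 3 reads. *Ptgs2os*, antisense to the region of *Ptgs2*, had no read at M0 and 10.8 ± 2.51 CPM at 12 h (SD, n = 4). *G530011O06Rik* had 22.9 and 1.27 CPM in the wt and 18.1 and 17.6 CPM in the Treml4-/- libraries at 12 h, wt replicate 2 being far below the rest, and 14.7 and 1.11 CPM in wt at 8 h, where replicate 2 was again the low one. *Gm15513* went from 23.1 ± 2.90 CPM to 0.0523 ± 0.0222 CPM (SD, n = 4).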
